A study of Mus musculus with 16 samples.

Results

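The Hoxd cluster holds 9 genes for homeodomain transcription factors, Hoxd1, Hoxd3, Hoxd4, Hoxd8, Hoxd9, Hoxd10, Hoxd11, Hoxd12 and Hoxd13, and its chromatin was followed here in blood stem cells of young and old mice. The members were all deposited peaks and islands that touch a window of 130 kb on chromosome 2 of the mouse build mm9, starting at 74480001, which runs from the Hoxd13 end to the Hoxd1 end, and 100 kb on each side was read as flank. Of 610361 regions in 16 lists, 25 touched the window. They were 13 of 71170 H3K4me3 peaks, 12 of 215133 H3K27me3 islands and 0 of 324058 H3K36me3 peaks. A further 50 regions touched the flank on the Hoxd13 side and 49 touched the flank on the Hoxd1 side, with those that cross a border of the window counted again.

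The lists came from chromatin immunoprecipitation with sequencing (ChIP-seq) of 3 histone methylations. The cells were primary hematopoietic stem cells from the bone marrow of C57BL/6 mice, sorted as SP-KSL-CD150+, a gate on dye efflux and surface markers. The young mice were 4 months and the old mice 24 months old. The labels give no genotype beyond the strain and no treatment. H3K4me3 was measured in 2 young and 2 old libraries (replicates 7 and 8), H3K27me3 in 3 young and 3 old (replicates 1 to 3) and H3K36me3 in 3 young and 3 old (replicates 4 to 6). The labels number biological replicates, describe every library as a technical replicate of one of them, and do not say how many animals each stands for. The p-values below therefore reflect only how far these libraries differ, which may be technical. The lists held 16258 to 19923 H3K4me3 peaks, 17752 to 47197 H3K27me3 islands and 6399 to 84437 H3K36me3 peaks, and read depth is unknown. Expression was not measured, so the sorted cell type could not be checked against marker genes.

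Hox genes give cells their position along the body axis, and within a cluster the genes lie in the order in which they are switched on, from the Hoxd1 end, used in front parts of the body, to the Hoxd13 end, used at the tail and in the digits. Where a cluster is silent it is a textbook target of the Polycomb complexes, which lay H3K27me3 over long stretches of chromatin and keep genes off. H3K4me3 marks promoters that are active or poised, and a promoter that carries it inside a Polycomb domain is called bivalent. H3K36me3 is laid over gene bodies by the methyltransferase SETD2, which travels with the elongating polymerase. Among the Hox genes, those of the Hoxa and Hoxb clusters are the ones best known in blood stem cells.

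In the RefSeq annotation of GRCm38.p6 the protein-coding genes follow each other as Lnpk, Evx2, Hoxd13, Hoxd12, Hoxd11, Hoxd10, Hoxd9, Hoxd8, Hoxd3, Hoxd4, Hoxd1 and Mtx2, ordered by the lower end of each gene. By its lower end the gene of the microRNA miR-10b comes after Hoxd4 and before Hoxd1, though genes in this order may overlap. Hoxd13 to Hoxd9 are the posterior members, related to Abd-B of the fly, and Hoxd13 is the gene mutated in synpolydactyly. Hoxd8 belongs to the central group, and Hoxd4, Hoxd3 and Hoxd1 to the anterior ones. Evx2, beside Hoxd13, also codes for a homeodomain protein, while Lnpk, a protein of the endoplasmic reticulum, and Mtx2, a protein of mitochondrial import, serve general cell functions. Gene positions on mm9 were not used here, so peaks are given by position and distance from the window's start and are assigned to no single gene.

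The promoters of the cluster differ in CpG, the dinucleotide that is dense where H3K4me3 and Polycomb marks are usually found, and they are shown because the whole window shared one H3K27me3 domain in most libraries. All 9 members matched the RefSeq promoter table of GRCm38.p6, with 10 promoters in all, 2 of them for Hoxd11. In the 250 bases before the start, the motif CG, which reads the same on both strands, occurred 2 to 31 times with a median of 12.5. The median over 32851 promoters of the table was 6, and 92.1% of them held at least 1 CG. In 7 of the 10 the count was above that median. The highest counts were 31 for Hoxd13 and 24 for Hoxd1, more than in 94.8% and 88.0% of all promoters. Inside the cluster the promoter of Hoxd10 and the second of Hoxd11 held 20 each, while the first of Hoxd11 held 2 and that of Hoxd4 held 3. The 3 stretches shown are those of the highest counts and that of Hoxd4, the lowest of the genes with a single promoter. They are on the plus strand of GRCm38.p6, not of mm9, and lie at chr2:74667975-74668224 for Hoxd13, chr2:74721728-74721977 for Hoxd4 and chr2:74762730-74762979 for Hoxd1, and each CG is in capitals.
Hoxd13: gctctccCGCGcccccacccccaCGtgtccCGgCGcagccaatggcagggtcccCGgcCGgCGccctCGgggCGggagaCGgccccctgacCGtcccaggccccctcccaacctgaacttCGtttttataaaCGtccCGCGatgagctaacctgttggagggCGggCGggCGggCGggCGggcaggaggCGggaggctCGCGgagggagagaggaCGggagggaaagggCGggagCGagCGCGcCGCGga
Hoxd4: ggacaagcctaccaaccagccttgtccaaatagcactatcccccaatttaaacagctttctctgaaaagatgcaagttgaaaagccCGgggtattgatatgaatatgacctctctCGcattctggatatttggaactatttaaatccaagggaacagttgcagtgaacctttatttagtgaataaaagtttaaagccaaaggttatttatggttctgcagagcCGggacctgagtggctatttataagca
Hoxd1: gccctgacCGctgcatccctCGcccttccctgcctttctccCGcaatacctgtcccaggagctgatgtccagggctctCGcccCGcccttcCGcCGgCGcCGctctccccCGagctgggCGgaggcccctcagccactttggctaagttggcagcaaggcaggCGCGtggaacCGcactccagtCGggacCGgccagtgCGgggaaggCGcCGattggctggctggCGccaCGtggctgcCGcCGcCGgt

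Young H3K27me3 replicate 1 stood apart from the other 5 H3K27me3 libraries over the cluster. Its 3 islands in the window covered 14000 bp, or 10.8%, while the other 5 libraries covered at least 98.0%. Comparisons between ages that use this library are therefore given with and without it. Its outermost islands in the flanks, from 74380401 to 74707800, reached farther out than those of the other 5. They touched 3 of the 5 H3K36me3 peaks that young H3K36me3 replicate 4 had in the window and flanks, where islands of the other 5 H3K27me3 libraries touched 0, and 1 to 3 peaks of each other H3K36me3 library. Young H3K27me3 replicate 1, young H3K36me3 replicate 4 and old H3K36me3 replicate 4 carry the number 16 in their titles, which the labels do not explain. Whether this library had a part in the differences between ages was not tested beyond leaving it out.

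**Figure D1:**
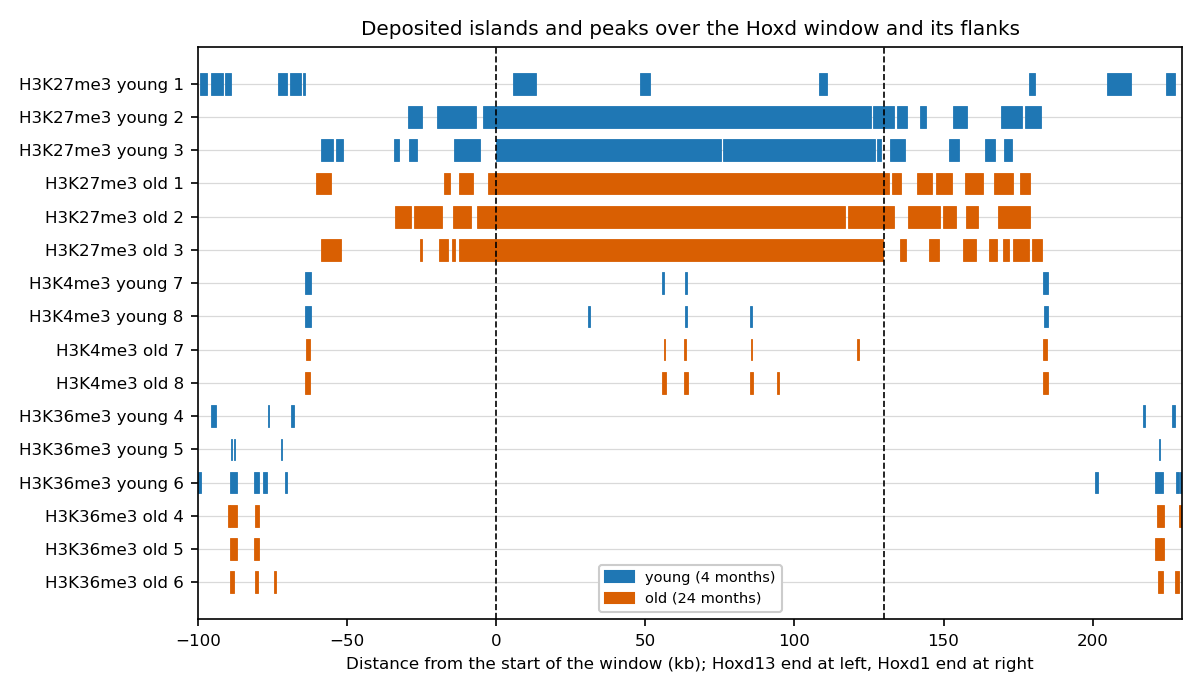
Map of every deposited H3K27me3 island, H3K4me3 peak and H3K36me3 peak in the window and its flanks, 1 line per library, with distance from the start of the window in kb on the x axis and the window between the dashed lines. The islands of 5 H3K27me3 libraries fill the window, the H3K4me3 peaks in it are few and narrow, and no H3K36me3 peak lies in it.

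H3K27me3 covered the Hoxd cluster nearly from end to end at both ages, except in young replicate 1. The window was covered over 129200 bp (99.4%) in young replicate 2 and 127400 bp (98.0%) in young replicate 3. It was covered over 130000 bp (100%) in old replicate 1, 129200 bp (99.4%) in old replicate 2 and 129600 bp (99.7%) in old replicate 3. Without young replicate 1 the share was 98.7 ± 0.979% (SD, n = 2) in young and 99.7 ± 0.308% (SD, n = 3) in old libraries. With it the young share was 69.4 ± 50.8% (SD, n = 3). The groups met at 129200 bp, the value of young replicate 2 and of old replicate 2. Of the 12883 windows of this length covered in at least 2 libraries, every old library lay above every young one in 14.0% and below in 8.48%. With young replicate 1 these shares were 10.3% and 1.88% of 14308 windows. The log2 ratio of old to young was 0.01, with an exact two-sided permutation p of 0.2, where the smallest p possible is 0.1. With young replicate 1 the log2 ratio was 1.07 and the exact permutation p again 0.2. Within title numbers 18 and 20, which occur at both ages, it was 0 and 0.02. Covered length cannot exceed the 130000 bp of the window. The 5 libraries other than young replicate 1 already lay at 127400 to 130000 bp. A gain of H3K27me3 with age could therefore not show in their ratios, which do not show that its level was unchanged. Ratios of covered length here and below are on the log2(bp + 200) scale.

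The domain was nearly free of gaps. In old replicate 1 a single island of 134600 bp spanned the window, and in old replicate 3 an island of 142200 bp left only the last 400 bp at the Hoxd1 end. Young replicate 2 had an island of 130200 bp and old replicate 2 one of 123400 bp, each followed by a shorter island after a gap of 800 bp. In young replicate 3 the domain was split into islands of 75200, 51000 and 1200 bp. Within the window the uncovered stretches of the 5 libraries were 400 to 1000 bp long, and those that ended before its border were 800 bp, which is 4 steps of the 200 bp grid on which the islands lie. Gaps fell at 74555201 to 74556000 and at 74607001 to 74607800 in young replicate 3, at 74605601 to 74606400 in young replicate 2 and at 74597001 to 74597800 in old replicate 2, and these 4 gaps did not overlap. At the Hoxd1 border, young replicate 3 was uncovered from 74609001 and old replicate 3 from 74609601, so both lacked the last 400 bp. Of the 13 bins of 10 kb in the window, 11 to 13 were covered in full in each of these 5 libraries.

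Within its own list the Hoxd island was among the longest and among those of highest score. The score of an island is the authors' and its unit is not given. The longest Hoxd island had a score of 3598 in young replicate 2, 4067 in young replicate 3, 7093 in old replicate 1, 5083 in old replicate 2 and 7440 in old replicate 3. The median island of these lists had a score of 44 to 68. By score the longest Hoxd island ranked between 3 and 5, and by width between 2 and 4, in lists of 17752 to 47197 islands. Per kb of its length its score was 27.6 to 54.1 in these libraries, against list medians of 10 to 19.2. The gap to the median island was thus much smaller once score was divided by length. In young replicate 1 the longest island in the window, of 8000 bp, had a score of 184 and ranked 546 by score. These scores and ranks come from lists of different length, so whether they changed with age cannot be read from them.

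**Figure D2:**
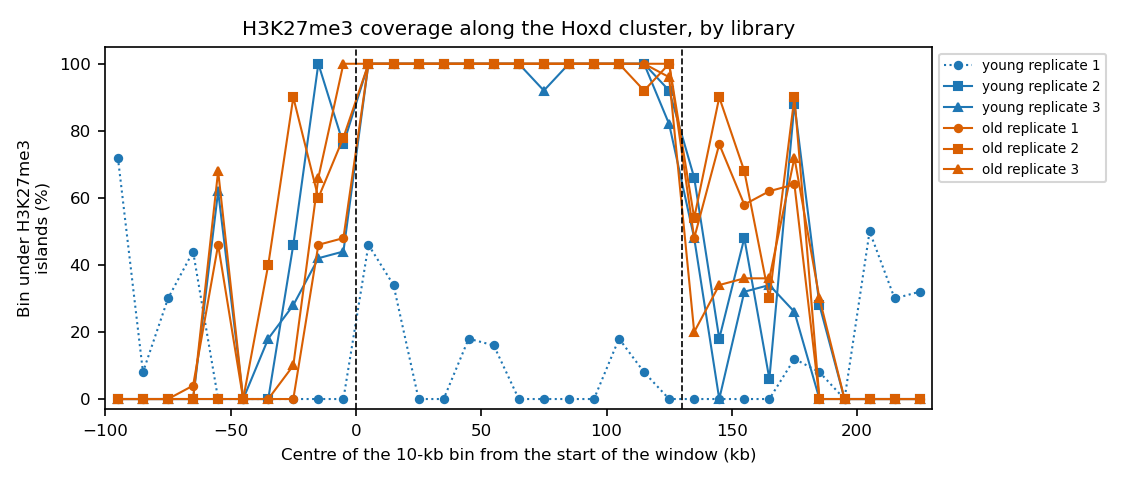
Share of each 10-kb bin under H3K27me3 islands (y axis, %) along the window and flanks (x axis, kb from the window's start), 1 line per library, with the window between the dashed lines. In 5 libraries every bin of the window is at least 82% covered, and the lines spread in the flanks, while young replicate 1 (dotted) stays at or below 46% inside the window.

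Compared with the rest of the genome, the Hoxd window was among the most completely covered stretches of its length. The genome was divided into 20290 windows of 130 kb on the grid set by the Hoxd window. By the mean of the 5 libraries, 99.3%, it ranked 1, and in single libraries it ranked between 1 and 3. With windows moved in steps of 10 kb, 1 of 263665 windows, at another locus, had a higher mean. In these 5 libraries the window held 14.5 to 21.3 times the mean H3K27me3 length of a window. In young replicate 1 it held 1.68 times the mean and ranked 4262. The window next on the grid lay on chromosome 19 at 44710001 to 44840000 with a mean of 98.9%, and windows on chromosome 15 at 102820001 to 102950000 and 102690001 to 102820000 followed with 95.05% and 94.5%. The position of the grid was set by the Hoxd window, which favours it over domains that the grid divides.

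The borders of the domain varied between libraries of the same age. Islands were joined over gaps of at most 5 kb to find the ends of the domain. It began 29.6 kb before the window in young replicate 2 and at the window's start in young replicate 3. It began 2.8, 34 and 19.2 kb before the window in old replicates 1, 2 and 3. On the Hoxd1 side it ended 14 and 7 kb after the window in young replicates 2 and 3, 5.8 and 31.4 kb after it in old replicates 1 and 2, and 0.4 kb before its end in old replicate 3. Leaving young replicate 1 out, the young domain measured 155300.0 ± 25880.1 bp (SD, n = 2). The old domain measured 160933 ± 30282 bp (SD, n = 3). The exact permutation p was 0.7 for the start, 1.0 for the end and 0.8 for the length, where 0.1 is the smallest possible. In young replicate 1 the same rule gave a domain of 8000 bp, from 74485401 to 74493400. With it the young length was 106200.0 ± 86990 bp (SD, n = 3), and the exact permutation p was 0.5 for the start, 0.6 for the end and 0.4 for the length.

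In the flanks H3K27me3 lay in short islands. On the Hoxd13 side it covered 22200 and 19400 bp of 100 kb in young replicates 2 and 3, and 14400, 26800 and 24400 bp in the old libraries, so the groups overlapped. Young replicate 1 covered 15400 bp there. The log2 ratio was 0.17 with an exact permutation p of 0.6, and leaving out young replicate 1 changed them to 0.03 and 1.0. Within title numbers 18 and 20 it was 0.27 and 0.33, so the old library was the higher one in both. On the Hoxd1 side it covered 25400 and 14000 bp in young replicates 2 and 3, 13200 bp in young replicate 1, and 30800, 33200 and 22800 bp in the old libraries, and the groups overlapped again. The log2 ratio on the Hoxd1 side was 0.76, with an exact permutation p of 0.2 and an adjusted p of 0.75 over the 9 combinations of mark and segment tested, and without young replicate 1 it was 0.59 with an exact p of 0.3. Within title numbers 18 and 20 this ratio was 0.38 and 0.70. The whole lists compared there also differed in size. For number 18 the islands summed to 123.0 Mb in young and 160.1 Mb in old replicate 2. For number 20 they summed to 178.9 Mb in young and 170.6 Mb in old replicate 3. Whether list size had a part in the flank ratios was not tested.

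A single bin of the flank had a higher value in every old than in every young library and an unadjusted p under 0.05. It was chosen after its values were seen. This bin, at 74620001 to 74630000 on the Hoxd1 side, was covered over 0, 1800 and 0 bp in young replicates 1 to 3 and over 7600, 9000 and 3400 bp in old replicates 1 to 3. Limma gave a log2 change of 3.89 with an SE of 1.81, an unadjusted p of 0.0352 and an adjusted p of 0.685, so it was not called, and without young replicate 1 the adjusted p was 0.524. Among all bins covered in at least 2 libraries, 7.40% had every old library above every young one, or 9.23% without young replicate 1.

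Neither H3K27me3 nor H3K4me3 could be called different with age at any unit of the cluster. Limma called 0 of 56935 H3K27me3 bins of the genome (0%), with 1933 at an unadjusted p under 0.05, 1686 of them higher in the old. Without young replicate 1 it called 0 of 47493 bins, with 4515 at an unadjusted p under 0.05, 2407 of them higher in the old. With young replicate 1 it called 0 of the 13 bins of the window, where 0 had an unadjusted p under 0.05, and 0 of 12 flank bins tested, where 1 had. In the window the log2 changes ran from 0.36 to 2.00 with young replicate 1 and from -0.04 to 0.18 without it. A bin already covered in full could show no gain. In simulated data on 56935 H3K27me3 bins, with the spread of these libraries including young replicate 1, the test recovered 0 of 100 bins changed by 3 on the log2 scale. A count of 0 in that fit therefore does not show that bins did not change. The fit without young replicate 1 was not simulated, so what it could have detected is unknown.

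H3K4me3 inside the cluster lay in narrow peaks of low score. The length under peaks in the window was 0.978 to 2.38 times the mean of the 20290 windows of the genome, at percentiles 67.7 to 84.9. The 13 peaks in the window were 525 to 1309 bp wide with a median of 725 bp, narrower than the median peak of each list (1330 to 1676 bp). Their scores, which are the authors' and of unknown unit, were 103.26 to 598.79, while 47.7 to 59.7% of the peaks of each list had a score of 3100 or more. No peak of the window was above percentile 31.3 of the scores in its list. The flanks each held 1 site with a score of 3100 in all 4 libraries, at 74415882 to 74417928 on the Hoxd13 side and at 74663267 to 74665116 on the Hoxd1 side, 1356 to 2047 bp wide.

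The 13 peaks formed 6 sites, and 1 of them was found in all 4 libraries. This site, at 74542830 to 74544138 and 63.5 kb from the window's start, was covered over 707 and 742 bp in young replicates 7 and 8 and over 693 and 1309 bp in old replicates 7 and 8. Both the lowest and the highest value were old, and limma gave a log2 change of 0.33 with an SE of 0.34 and an adjusted p of 0.980. The site at 74535654 to 74536766 was covered over 718 and 0 bp in the young and over 525 and 1051 bp in the old libraries. The site at 74565069 to 74565925 was covered over 0 and 730 bp in the young and over 564 and 733 bp in the old libraries. Each of these was thus missing from 1 young library, and not from the same one.

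The other 3 sites were each found in a single library. That nearest the Hoxd13 end, at 74510624 to 74511332, was a peak of 709 bp in young replicate 8. That at 74574054 to 74574778 was a peak of 725 bp in old replicate 8, with the lowest score of the 13. That nearest the Hoxd1 end, at 74600876 to 74601753, was a peak of 878 bp in old replicate 7. No site was found in both libraries of one age and in neither of the other.

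**Figure D3:**
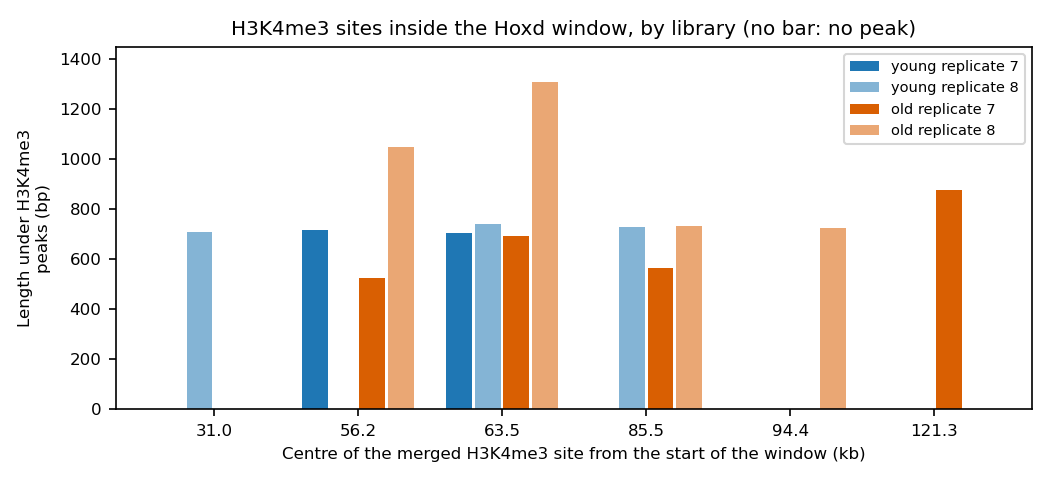
Length under H3K4me3 peaks (y axis, bp) at each of the 6 sites of the window (x axis, kb of the site's centre from the window's start), 1 bar per library. Only the site at 63.5 kb has a bar for all 4 libraries, between 693 and 1309 bp, and 3 sites have a single bar.

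Summed over the window, H3K4me3 covered 1425 and 2181 bp in young replicates 7 and 8 and 2660 and 3818 bp in old replicates 7 and 8. The young mean was 1803 ± 535 bp (SD, n = 2). The old mean was 3239 ± 819 bp (SD, n = 2). Both old libraries lay above both young ones, with 2 and 3 peaks in the young and 4 in each of the old lists. The log2 ratio was 0.79, and the exact permutation p was 0.333, which is the minimum for 2 against 2 libraries, with an adjusted p of 0.75. Of the 8389 windows of 130 kb covered in at least 2 libraries, 17.6% had both old libraries above both young ones. With the same number of peaks kept per list, by score, the old values were 2135 and 2042 bp and the young values 1425 and 2181 bp, a log2 ratio of 0.22 with overlapping groups. With 10 kb taken off each end of the window the old values were 1782 and 3818 bp and the young values as before, a ratio of 0.52 with overlapping groups. Within title number 18 it was 0.82. Limma called 0 of 17303 H3K4me3 regions (0%), 1252 of which had an unadjusted p under 0.05, and of the 3 Hoxd sites held by at least 2 libraries it called 0, with 0 at an unadjusted p under 0.05. With bins in place of regions it called 0 of 18949, 1238 of them at an unadjusted p under 0.05. In simulated data with the spread of these libraries, limma recovered 18 of 100 H3K4me3 regions changed by 1 on the log2 scale. It recovered 78 of 100 regions changed by 3.

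At the flanking site on the Hoxd13 side, H3K4me3 was narrower in both old libraries, with 2047 and 1962 bp in young replicates 7 and 8 and 1650 and 1686 bp in old replicates 7 and 8. The median peak of the whole list was also narrower in both, with 1676 and 1527 bp in the young and 1330 and 1469 bp in the old libraries. The log2 ratio over this flank was -0.24, with an exact permutation p of 0.333, and 10.1% of the 8389 windows covered in at least 2 libraries had both old libraries below both young ones. At the flanking site on the Hoxd1 side the values were 1696 and 1356 bp in the young and 1429 and 1628 bp in the old libraries, which overlap.

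Every H3K4me3 site of the window lay under H3K27me3 in the 5 libraries other than young replicate 1. All 6 sites were covered over 100% of their length by islands of young replicates 2 and 3 and of old replicates 1, 2 and 3, and over 0% by those of young replicate 1. None of the gaps in the domain thus fell on an H3K4me3 site. The 5 libraries covered at least 98.0% of the window, so most short stretches in it would be covered in full. The overlap alone therefore does not set the H3K4me3 sites apart from the rest of the window. The gaps between islands of these 5 libraries in the window were all 800 bp, and the H3K4me3 peaks were 525 to 1309 bp wide. A shorter interruption of H3K27me3 at a site may therefore not show in the islands. The test of the share of H3K4me3 length under H3K27me3 between ages used the site found in all 4 libraries. It gave a difference of 33.3 percentage points, set by young replicate 1 alone, with an exact permutation p of 1.0, and without that library the difference was 0. The marks were measured in separate libraries, so their presence on the same chromosome copy cannot be read from them. The 2 flanking sites with scores of 3100 were covered over 0% by all 6 H3K27me3 libraries. In the 5 libraries other than young replicate 1, all islands of the window and flanks lay between these 2 sites, the outermost from 74419601 to 74663000.

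**Figure D4:**
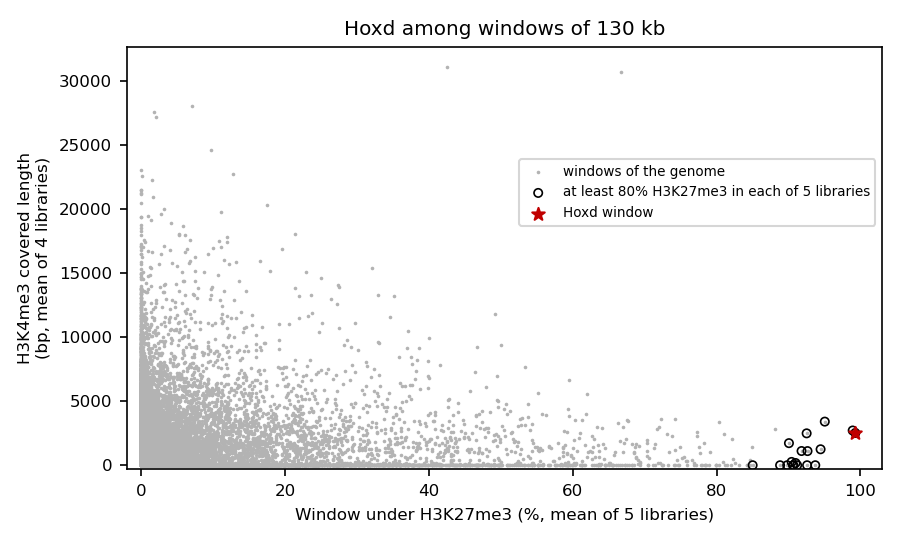
Mean H3K4me3 length of 4 libraries (y axis, bp) against the mean share under H3K27me3 of 5 libraries without young replicate 1 (x axis, %) for 20290 windows of 130 kb. The Hoxd window (star) lies at 99.3% and 2521 bp, at the right edge of the 18 windows with at least 80% in each of the 5 libraries (circles).

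The Hoxd window was set beside other stretches that H3K27me3 covered widely in the 5 libraries without young replicate 1, which covered 10.8% of it. In 18 windows of the grid, Hoxd included, each of the 5 libraries covered at least 80%. Their H3K4me3 length, as the mean of 4 libraries, had a median of 217 bp and ran from 0 to 3408.5 bp, and 8 of them had none. The Hoxd window had 2521 bp, and 2 windows had more, namely 2715 bp in the chromosome 19 window that starts at 44710001 and 3408.5 bp in the chromosome 15 window that starts at 102820001. Of the 9 that had H3K4me3 in at least 2 libraries, both old libraries lay above both young ones in 3, Hoxd among them, and below in 0. Over all 8389 windows with H3K4me3 in at least 2 libraries these shares were 17.6% and 10.1%. The Hoxd value lay above the median of the 18. With at least 90% in each of the 5 libraries there were 4 windows, Hoxd included, with a median of 2618 bp. That median lies midway between the Hoxd value and the 2715 bp of the chromosome 19 window. That Hoxd lay below it therefore says nothing of its place. These values are descriptions, as the windows were picked on H3K27me3 of these libraries.

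H3K36me3 was not found in the cluster at either age. The length under its peaks in the window was 0 bp in each of the 6 libraries, and between 62.7 and 81.0% of the windows of the genome were also at 0 in these lists, so the absence of a peak is common. The stretch free of peaks around the cluster was longer than the window and measured 271 to 301 kb. It began 68.0 to 79.8 kb before the window and ended 70.8 to 92.1 kb after it. As the lists hold only peaks that passed the caller, a level under its threshold was not detectable.

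The nearest H3K36me3 peaks lay in the flanks, beyond the H3K4me3 sites with scores of 3100. The region at 74389955 to 74393037 on the Hoxd13 side was held by 5 libraries, with 908 and 2341 bp in young replicates 5 and 6 and 2861, 2366 and 1166 bp in old replicates 4, 5 and 6. The region at 74398768 to 74400464 was held by young replicate 6 and the 3 old libraries, with 1108 to 1658 bp. On the Hoxd1 side the region at 74700906 to 74703952 was held by 5 libraries, with 309 and 2839 bp in young replicates 5 and 6 and 2328, 2855 and 1702 bp in old replicates 4, 5 and 6. On that side 2 further regions were each held by 2 libraries, at 74707769 to 74708988 and at 74709074 to 74710182. A further 11 regions in the flanks were each held by a single library. Young replicate 4, which had 6399 peaks in all against 39362 to 84437 in the other 5, held none of the regions found in 2 or more libraries and was the sole holder of 5 of the 11. The log2 ratio of old to young was 0.33 on the Hoxd13 side and 0.83 on the Hoxd1 side, with exact permutation p of 0.7 for each, and the groups overlapped on both sides. Within title numbers 16 and 18 the ratio was 0.52 and 1.26 on the Hoxd13 side and 0.88 and 2.55 on the Hoxd1 side. The whole lists compared there also differed in median peak width. It was 794 bp in young and 1316 bp in old replicate 4 for number 16, and 354 bp in young replicate 5 and 1041 bp in old replicate 6 for number 18. Of the 7439 windows covered in at least 2 libraries, every old one lay above every young one in 1.64% and below in 0.0807%. Limma called 0 of 35848 H3K36me3 bins (0%), with 149 at an unadjusted p under 0.05, and 0 of the 4 flank bins tested, with 0 at an unadjusted p under 0.05. In simulated data with the spread of these libraries it recovered 0 of 100 H3K36me3 bins changed by 3 on the log2 scale. A count of 0 therefore does not show that bins did not change.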

How the data were processed

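Values were the starts, ends and scores of peaks as the authors deposited them, 1 list per library. The tools named in the submitters' processing notes are CASAVA 1.4, SICER and MACS, with build mm9. What aligner, thresholds and controls were used is not given in the sources used here. Depth is unknown, so no counting error could be computed. The deposited score of each peak has no stated unit. H3K27me3 lists had bounds on a 200 bp grid and both ends were counted in.

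Covered length was computed for the window, flanks, 10-kb bins and merged regions (sharing 1 bp or abutting). Ages were compared by exact permutation tests on log2(bp + 200) and by limma 3.58.1 (R 4.3.3, trend, Benjamini-Hochberg over the genome, threshold 0.05) for units covered in at least 2 libraries, tested on simulated data. Other steps used Python 3.11.15, numpy 2.4.6 and pandas 2.3.3. The text names every region of the window, the flank regions of H3K4me3 and H3K36me3 held by at least 2 libraries, and the H3K27me3 islands of the flanks as sums. Members and lists were chosen with earlier results of these data known. Alternatives were other peak sets, windows, pseudocounts, filters, single libraries left out and replicate numbers as a block. The windows moved in steps of 10 kb and the rank over all 6 libraries were added after seeing the data.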

Additional observations from a re-analysis of the deposited data

How the results depend on the processing

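The exact tests over the Hoxd window could not pass 0.05, since the smallest p is 0.333 for H3K4me3 and 0.1 for the other marks, so they say nothing of stability. Leaving out 1 library, the log2 ratio of covered length ran from 0.51 to 1.06 for H3K4me3 and from 0.01 (without young replicate 1) to 1.61 for H3K27me3, and it was 0 for H3K36me3 in each setting. With the replicate block the ratios were 0.79, 1.07 and 0, with exact sign-flip p of 0.5, 0.5 and 1.0. The labels do not say what same-numbered libraries share, though some also share a title number. Their deviations in bins correlated at -0.008 for H3K4me3, -0.005 to 0.174 for H3K27me3 and -0.043 to 0.126 for H3K36me3, and not every library correlated best with its own number, so they were not treated as pairs. With the stricter threshold, the median score of each list, no H3K4me3 peak was left in the window, so no ratio could be given. Among all units of the genome limma called 0 to 5 H3K4me3 bins with 1 library left out (5 without young replicate 7) and 291 with the stricter threshold, 156 of them higher in the old. It called 15 to 94 H3K4me3 regions with 1 library left out, where the lone library of an age is assumed to vary like the others. The difference in the share of the common H3K4me3 site under H3K27me3 ran from 0 to 50 percentage points with 1 library left out. Single units of the window changed sign with 1 library left out. The log2 change of the H3K4me3 site at 74565069 went from 0.97 to -0.14 without young replicate 7, that of the site at 74542830 from 0.33 to -0.05 without old replicate 8, and that of the H3K27me3 bin at 74590001 from 1.08 to -0.04 without young replicate 1. In none of the fits run was a unit of the window or flanks called. The rank of the window by H3K27me3 went from 1 to 2 with sliding windows, and with all 6 libraries it was 2 on the grid and 11 with sliding windows. Read depth is unknown, so a missing peak cannot be told from a shallow library.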
